A study of Mus musculus with 10 samples.

Results

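Type I interferon antiviral response genes were examined in bulk RNA from 10 mouse melanomas collected 4 days after implantation. The group was fixed by name, as 39 mouse gene symbols, and all 39 were found among the 45706 genes of the count table and passed the filter on low counts, which 14550 genes passed. The tumors grew from a Braf-driven C57BL/6 melanoma cell line in C57BL/6 hosts labelled 8 weeks old. The 3 groups were as follows. *Ptgs*+/+ tumors (n = 4) came from wild-type tumor cells in untreated mice, *Ptgs*-/- tumors (n = 3) came from tumor cells deficient in both *Ptgs1* and *Ptgs2* in untreated mice, and NK cell-depleted *Ptgs*-/- tumors (n = 3) came from the same deficient cells in mice given 200 µg of anti-NK1.1 antibody (clone PK136) and 30 µg of anti-asialo-GM1 antibody per mouse, at injection and once more afterwards. *Ptgs1* and *Ptgs2* encode the cyclooxygenases COX-1 and COX-2, which make prostaglandin precursors, and the deficient line was made by CRISPR/Cas9. There is no group of *Ptgs*+/+ tumors from NK cell-depleted mice here, so the effect of depletion is seen only in COX-deficient tumors. NK cell-depleted *Ptgs*-/- and *Ptgs*+/+ tumors differ in tumor cell COX, in NK cells and in the antibodies given. Between those 2 groups these cannot be told apart. The anti-asialo-GM1 antibody is known to reach cells other than NK cells. The labels give each library as a tumor but do not state that each came from its own mouse, and p-values measure the spread between these libraries.

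Type I interferons, the interferon-α and interferon-β family, are secreted by cells whose sensors have met foreign or misplaced nucleic acid. They bind the IFNAR1 and IFNAR2 receptor, whose kinases JAK1 and TYK2 activate STAT2, which joins IRF9 in a complex that binds the interferon-stimulated response element (ISRE) in the promoters of antiviral genes. Interferon-γ, the product of NK cells and T cells, acts through its own receptor on a different element (GAS), yet it also raises many of the same genes. The question was whether the antiviral genes follow the loss of COX in the tumor cells or the presence of NK cells in the host.

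The promoter stretches below are shown for their letter matches to the ISRE or to GAS, the elements through which interferons are known to act. RefSeq windows of GRCm38.p6, running from 250 bases before to 50 bases after the annotated start, were at hand for 28 of the 39 genes. The remaining 11, without a window here, are *Mx1*, *Mx2*, *Oas2*, *Usp18*, *Dhx58*, *Zbp1*, *Rtp4*, *Parp9*, *Parp14*, *Ifi27l2a* and *Tor3a*. In the stretches of *Ifit3* (chr19:34583336-34583417, plus strand), *Ifit3b* (chr19:34607732-34607813, plus strand), *Ifit1* (chr19:34640767-34640848, plus strand), *Oas1g* (chr5:120887614-120887666, minus strand) and *Isg15* (chr4:156200840-156200931, minus strand), capitals mark ISRE matches on either strand. In *Ifit2* (chr19:34550444-34550496, plus strand) they mark a match to the GAS core. All lie before the start of their gene and read 5′ to 3′ on the gene's strand. *Isg15* and *Ifit2* were added after their values had been seen. *Ifit2* had no ISRE core match in its windows, and whether its GAS match bears on its levels was not tested.
Ifit3: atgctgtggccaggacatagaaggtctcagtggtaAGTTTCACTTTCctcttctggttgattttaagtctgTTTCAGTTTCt
Ifit3b: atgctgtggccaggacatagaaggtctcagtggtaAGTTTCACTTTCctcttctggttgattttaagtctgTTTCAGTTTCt
Ifit1: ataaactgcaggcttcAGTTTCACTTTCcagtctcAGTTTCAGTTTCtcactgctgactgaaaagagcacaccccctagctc
Oas1g: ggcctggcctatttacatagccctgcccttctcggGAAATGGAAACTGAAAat
Isg15: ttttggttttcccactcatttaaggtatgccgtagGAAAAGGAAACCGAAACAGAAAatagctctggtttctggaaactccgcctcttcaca
Ifit2: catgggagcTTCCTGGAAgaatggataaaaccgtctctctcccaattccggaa

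The stretches of *Ifit3* and *Ifit3b* are identical at 82 of 82 bases. *Ifit1* carries a pair of long ISRE matches, which begin 106 and 87 bases before the start, and *Isg15* carries 3 overlapping core matches, the first of them 78 bases before the start. The ISRE core (GAAA, any 2 bases and GAAA again, on either strand) was found in the windows of 14 of 28 antiviral genes (50%), against 3.99% of the 27025 genes with a window. The longer form, the core followed by CT, was found in 8 of 28 (28.6%), against 0.303% of all genes. The GAS letters (TTCNNNGAA) were found in 6 of 28 (21.4%), against 9.55% of all genes, and the stricter GAS core (TTCCNGGAA), a subset of these, in 2 of 28 (7.14%), against 1.35%. Those 2 were *Ifit2* and *Bst2*. A match of letters is a description of these windows and not evidence of binding, and a window without a match says nothing of elements outside it.

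**Figure D1:**
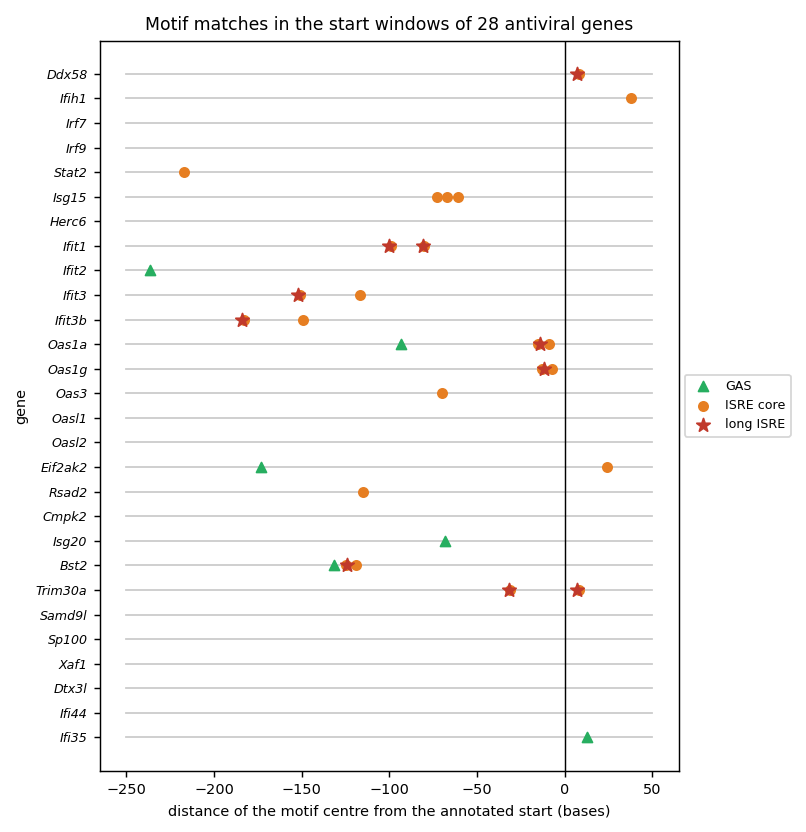
Motif matches in the start windows of the 28 antiviral genes with a window, 1 line a gene, with the distance of each match's centre from the annotated start in bases on the horizontal axis. Circles are ISRE core matches, stars the longer ISRE form and triangles GAS letters, on either strand. ISRE core matches stand in 14 genes, mostly before the start, GAS letters in 6 genes, and 11 genes have neither.

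The libraries were QuantSeq 3′ libraries of 8150556 to 12839174 counts, so a level is given as counts scaled to library size (CPM) and does not grow with gene length, and 3 counts in a library, the floor used here, equal 0.234 to 0.368 CPM. In bulk tumor RNA, fewer cells of a type and less RNA per cell cannot be told apart. *Ptgs2* was between 94.4 and 347 CPM in *Ptgs*+/+ tumors, 27 and 74.8 CPM in *Ptgs*-/- tumors, and 40.2 and 49.3 CPM in NK cell-depleted *Ptgs*-/- tumors, and *Ptgs1* was at 128 to 170, 77 to 105, and 95.3 to 97.8 CPM. Host cells also make both transcripts, and a 3′ tag need not lie in the edited part. The NK cell receptor gene *Ncr1* was at 0 counts in all 3 NK cell-depleted tumors, against 0.722 to 1.15 CPM in *Ptgs*+/+ and 2.45 to 7.02 CPM in *Ptgs*-/- tumors, and *Klrb1c*, which encodes NK1.1, was at 0.298 to 1.01 CPM against 1.44 to 2.41 and 8.47 to 15.1 CPM. Of the melanocytic markers, *Tyr*, *Tyrp1*, *Mlana*, *Pmel* and *Dct* stayed at or under 0.738 CPM in every library, while *Mitf* was between 17.4 and 33.1 CPM.

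Every one of the 39 antiviral genes had its lowest group mean in *Ptgs*+/+ tumors, a middle mean in NK cell-depleted *Ptgs*-/- tumors and its highest mean in *Ptgs*-/- tumors, an order held by 28% of all 14550 genes tested. As a summary, the mean of log2(CPM + 1) over the 39 genes was 4.07, 3.87, 4.49 and 4.29 in the *Ptgs*+/+ tumors. It was 5.38, 6.14 and 5.39 in the *Ptgs*-/- tumors, and 4.54, 4.87 and 5.10 in the NK cell-depleted *Ptgs*-/- tumors. No tumor of one group reached into the range of another. The group means were 4.18 ± 0.27 (SD, n = 4), 5.63 ± 0.43 (SD, n = 3) and 4.83 ± 0.28 (SD, n = 3), so that the score was higher by 1.45 in *Ptgs*-/- than in *Ptgs*+/+ tumors, higher by 0.80 in *Ptgs*-/- than in NK cell-depleted *Ptgs*-/- tumors, and higher by 0.65 in NK cell-depleted *Ptgs*-/- than in *Ptgs*+/+ tumors. The 3 differences share tumors and are not independent of each other.

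**Figure D2:**
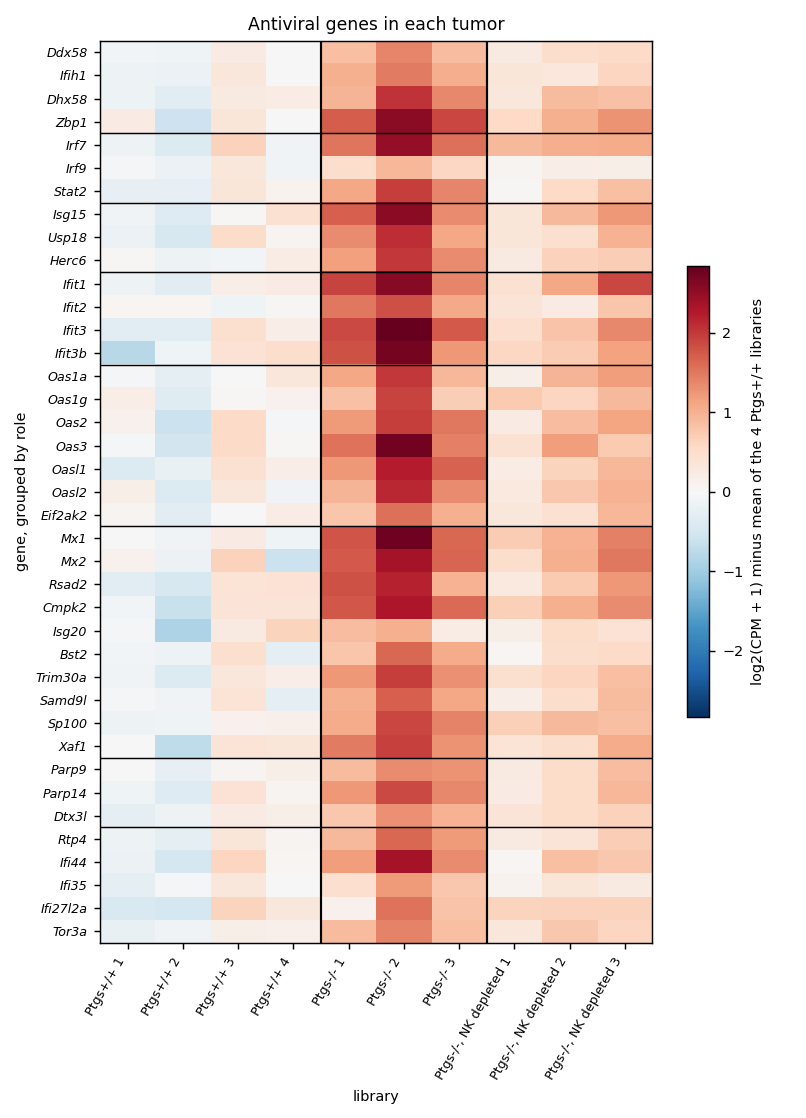
Level of each of the 39 antiviral genes (rows, grouped by role) in each of the 10 libraries (columns), as log2(CPM + 1) minus the mean of the 4 *Ptgs*+/+ libraries. Red is above and blue below that mean, the *Ptgs*-/- columns are the deepest red, replicate 2 of that group is the highest of its group in all 39 genes, and the NK cell-depleted columns stand between the others.

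Against *Ptgs*+/+ tumors, 37 of the 39 genes rose in *Ptgs*-/- tumors at an adjusted p of at most 0.05 (quasi-likelihood test of edgeR, adjusted by the Benjamini-Hochberg method over all genes tested), while 12.1% of all genes tested rose at that threshold. The same 37 did not overlap between the groups, which held for 18.1% of all genes. With a log2 fold change of at least 1.5 required as well, the study's own threshold, 23 of 39 rose, against 3.14% of all genes. The log2 fold changes ran from 0.63 for *Irf9* to 2.36 for *Mx1*, with a median of 1.53, where the median of all genes was -0.01. Leaving out any 1 library kept the count at 37 or 38, and within the libraries that share the first of 2 codes in the titles, whose meaning the labels do not give, 38 were called with a median of 1.72. Over all genes, in either direction, 3360 were called in the main fit and 2222 within the first code. The second code stands only on *Ptgs*+/+ replicate 4 and *Ptgs*-/- replicate 3, and every NK cell-depleted tumor carries the first.

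Between *Ptgs*-/- tumors of NK cell-sufficient and NK cell-depleted mice, all 39 fold changes pointed to higher levels with NK cells, but 1 gene, *Ifit2*, passed the adjusted threshold, against 0.515% of all genes tested. The log2 fold changes ran from 0.26 for *Ifi27l2a* to 1.30 for *Ifit3*, with a median of 0.86 against -0.01 for all genes. In 31 of the 39, every *Ptgs*-/- tumor stood above every NK cell-depleted one, which held for 10.4% of all genes. None reached the study's threshold, which 0.323% of all genes did. The count of called genes depended on the method, from 0 to 21 (DESeq2 called 16, edgeR's likelihood ratio test 13, and edgeR's quasi-likelihood test without a filter on low counts 21), and leaving out 1 library gave 0 to 9. Within the first title code 1 was called, with a median of 1.01. The count over all genes moved with the method too. In either direction it was 209 in the main fit, 383 by DESeq2, 403 by the likelihood ratio test, 408 without the filter and 93 within the first title code.

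NK cell-depleted *Ptgs*-/- tumors in turn held 7 genes above *Ptgs*+/+ tumors at the adjusted threshold, namely *Ifit1*, *Mx1*, *Irf7*, *Zbp1*, *Cmpk2*, *Parp9* and *Sp100*, or 7 of 39 against 6.63% of all genes. The fold changes of all 39 were above 0, from 0.11 for *Irf9* to 1.28 for *Ifit1* on the log2 scale, with a median of 0.60 against -0.01. In 19 of 39 the groups did not overlap, against 15.1% of all genes, and none reached the study's threshold, which 2.01% of all genes did. Leaving out 1 library gave between 1 (without *Ptgs*+/+ replicate 1 or 2, or NK cell-depleted replicate 2 or 3) and 15 called genes (without *Ptgs*-/- replicate 2), and the first title code alone gave 5 with a median of 0.66. Over all genes, in either direction, the count was 1818 in the main fit and 1538 within the first title code. It was 1859 without *Ptgs*-/- replicate 2, and 1219, 1187, 1121 and 909 in the fits that gave 1, in the order named. *Sp100* was the 1 gene called in all 20 alternatives of this comparison.

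**Figure D3:**
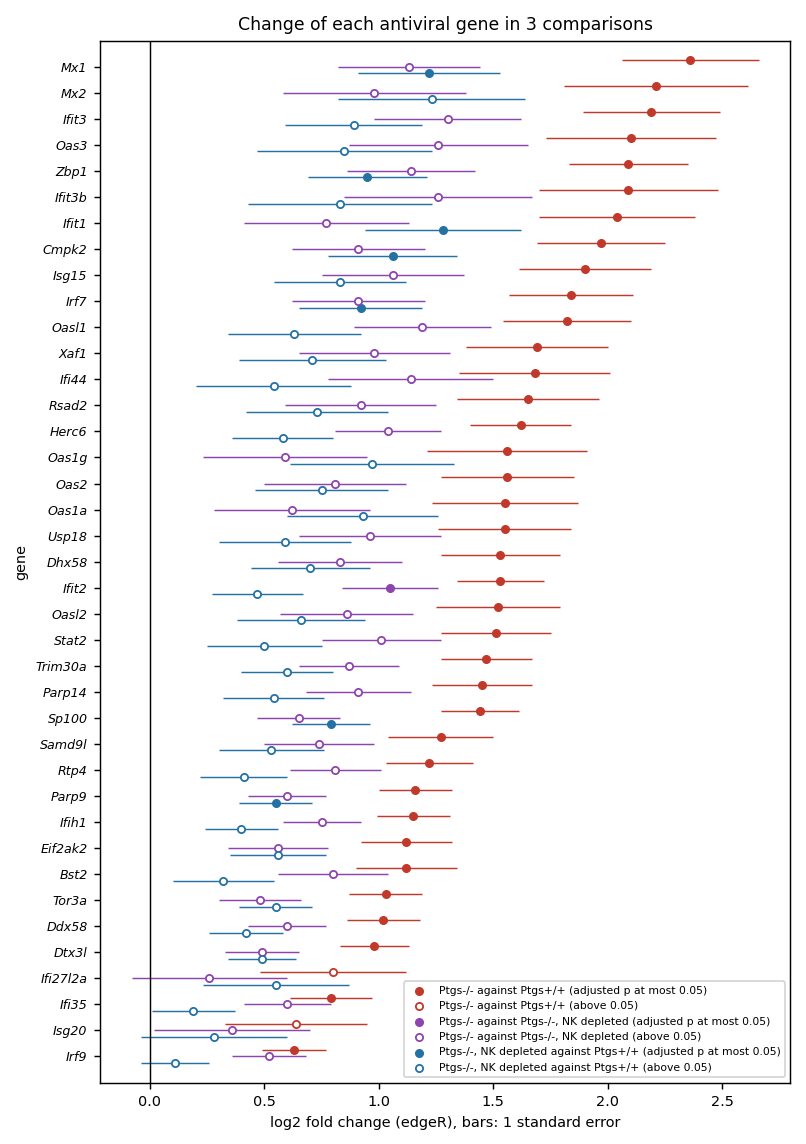
Log2 fold change of each antiviral gene with 1 standard error in 3 comparisons that share tumors, ordered by the change between *Ptgs*-/- and *Ptgs*+/+ tumors. Filled points have an adjusted p of at most 0.05 (edgeR), which 37 of 39 reached for *Ptgs*-/- against *Ptgs*+/+, 1 for *Ptgs*-/- against NK cell-depleted *Ptgs*-/-, and 7 for NK cell-depleted *Ptgs*-/- against *Ptgs*+/+, while every point lies above 0.

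The IFIT proteins bind foreign RNA and block its translation, and their genes lie side by side on chromosome 19, from *Ifit2* (chr19:34550694-34576419) to *Ifit1* (chr19:34640871-34650009) in GRCm38. *Ifit2* was at 10.7, 10.7, 9.39 and 10.6 CPM in *Ptgs*+/+ tumors, at 30.8, 39.3 and 22.9 CPM in *Ptgs*-/- tumors and at 13.5, 12.3 and 18.4 CPM in NK cell-depleted *Ptgs*-/- tumors. The groups stood apart in all pairs, with the depleted tumors just above the *Ptgs*+/+ tumors. The log2 fold change was 1.53 ± 0.19 (SE, adjusted p = 0.000413, edgeR) between *Ptgs*-/- and *Ptgs*+/+ tumors and 1.05 ± 0.21 (SE, adjusted p = 0.0295, edgeR) between *Ptgs*-/- and NK cell-depleted *Ptgs*-/- tumors. The latter call held in 13 of 20 alternatives, in which its adjusted p ran from 0.000546 to 0.157, and was lost without *Ptgs*+/+ replicate 4, *Ptgs*-/- replicate 2, or NK cell-depleted replicate 1 or 2. Between NK cell-depleted *Ptgs*-/- and *Ptgs*+/+ tumors it was 0.47 ± 0.20 (SE, adjusted p = 0.148, edgeR).

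IFIT1 is known to bind RNA whose cap lacks the host's methylation. *Ifit1* was at 12.5, 11.2, 16 and 16.6 CPM in *Ptgs*+/+ tumors, 55.3, 87.4 and 37.9 CPM in *Ptgs*-/- tumors, and 19.2, 30.7 and 54.7 CPM in NK cell-depleted *Ptgs*-/- tumors. NK cell-depleted replicate 3 thus stood at the level of *Ptgs*-/- replicate 1, and the 2 groups of *Ptgs*-/- tumors overlapped. Its log2 fold change was 2.04 ± 0.34 (SE, adjusted p = 0.00169, edgeR) for *Ptgs*-/- against *Ptgs*+/+ tumors, 0.77 ± 0.36 (SE, adjusted p = 0.456, edgeR) for *Ptgs*-/- against NK cell-depleted *Ptgs*-/- tumors, and 1.28 ± 0.34 (SE, adjusted p = 0.0314, edgeR) for NK cell-depleted *Ptgs*-/- against *Ptgs*+/+ tumors. The last of these was called in 15 of 20 alternatives. Without NK cell-depleted replicate 3 it was 0.81 and was not called. Whether *Ifit1* and *Ifit2* differ from each other in their response to depletion was not tested.

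*Ifit3* was at 18.8, 18.8, 32.7 and 27.1 CPM in *Ptgs*+/+ tumors, 89.4, 175 and 81.3 CPM in *Ptgs*-/- tumors, and 33.2, 42.5 and 62.5 CPM in NK cell-depleted *Ptgs*-/- tumors. Its neighbor *Ifit3b* was at 2.80, 4.95, 7.64 and 8.16 CPM, then 21.8, 41.4 and 14.2 CPM, and then 8.77, 9.69 and 13.4 CPM in the same order of groups. Both followed the same order with no overlap of groups, but they are near-identical copies whose reads may have been split between them. Against *Ptgs*+/+ tumors, *Ifit3* was higher in *Ptgs*-/- tumors by 2.19 ± 0.30 and *Ifit3b* by 2.09 ± 0.39 on the log2 scale (SE, adjusted p = 0.000628 and 0.00322, edgeR). Against NK cell-depleted *Ptgs*-/- tumors the values were 1.30 ± 0.32 and 1.26 ± 0.41, the largest of the 39 beside *Oas3*, without passing the test (SE, adjusted p = 0.0917 and 0.244, edgeR).

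The MX proteins are dynamin-like GTPases that trap viral nucleocapsids, although the *Mx1* allele of most laboratory strains, C57BL/6 among them, makes no functional protein. *Mx1* had the largest rise of the 39, with 3.5, 3.2, 4.3 and 3.14 CPM in *Ptgs*+/+ tumors, 14.6, 29.3 and 12.9 CPM in *Ptgs*-/- tumors, and 6.42, 7.93 and 11.1 CPM in NK cell-depleted *Ptgs*-/- tumors. The 3 groups did not overlap. The log2 fold change was 2.36 ± 0.30, or 5.12-fold, between *Ptgs*-/- and *Ptgs*+/+ tumors (SE, adjusted p = 0.000423, edgeR) and 1.22 ± 0.31 between NK cell-depleted *Ptgs*-/- and *Ptgs*+/+ tumors (SE, adjusted p = 0.0242, edgeR, called in 15 of 20 alternatives). Between *Ptgs*-/- and NK cell-depleted *Ptgs*-/- tumors it was 1.13 ± 0.31 (SE, adjusted p = 0.144, edgeR). *Mx2* was lower in level, at 2.26, 1.65, 3.69 and 0.942 CPM in *Ptgs*+/+, 8.96, 14.3 and 8.30 CPM in *Ptgs*-/-, and 3.21, 4.98 and 7.45 CPM in NK cell-depleted *Ptgs*-/- tumors. It rose by 2.21 ± 0.40 between *Ptgs*-/- and *Ptgs*+/+ tumors (log2 fold change with SE, adjusted p = 0.00255, edgeR) and its other 2 fold changes, 0.98 and 1.23, did not pass the test.

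The sensors of viral nucleic acid are themselves induced by interferon, and all 4 rose in *Ptgs*-/- against *Ptgs*+/+ tumors. *Ddx58* (RIG-I), *Ifih1* (MDA5) and *Dhx58* (LGP2), helicases that recognize or help to recognize viral RNA, had log2 fold changes of 1.02 ± 0.16, 1.15 ± 0.16 and 1.53 ± 0.26 (SE). *Zbp1*, a receptor for left-handed nucleic acid that can start necroptosis, changed more than these, from 15, 8.04, 16.2 and 12.6 CPM in *Ptgs*+/+ tumors to 43.6, 79 and 49.5 CPM in *Ptgs*-/- tumors, with 19.2, 26.2 and 31.7 CPM in NK cell-depleted *Ptgs*-/- tumors. Neither *Ptgs*-/- group overlapped the *Ptgs*+/+ group or the other. The *Zbp1* log2 fold change was 2.09 ± 0.26 for *Ptgs*-/- against *Ptgs*+/+ tumors (SE, adjusted p = 0.00038, edgeR), and 0.95 ± 0.26 for NK cell-depleted *Ptgs*-/- against *Ptgs*+/+ tumors (SE, adjusted p = 0.0368, edgeR, called in 12 of 20 alternatives). All 4 sensors were above the depleted group in every *Ptgs*-/- tumor, by 0.60 to 1.14 on the log2 scale, with adjusted p from 0.0676 to 0.252 (edgeR). *Dhx58* overlaps its antisense gene *Dhx58os*.

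Among the transcription factors, *Irf7*, which amplifies interferon-α production, was at 34.8, 29.3, 61.5 and 35.9 CPM in *Ptgs*+/+ tumors, 112, 222 and 117 CPM in *Ptgs*-/- tumors, and 74, 80.1 and 80.9 CPM in NK cell-depleted *Ptgs*-/- tumors. The depleted tumors lay close together between the other groups. *Irf7* rose by 1.84 ± 0.27 in *Ptgs*-/- tumors (log2 fold change with SE, adjusted p = 0.000934, edgeR) and by 0.92 ± 0.27 in NK cell-depleted *Ptgs*-/- tumors (adjusted p = 0.0482, edgeR, called in 11 of 20 alternatives), both against *Ptgs*+/+ tumors. Of the pair that act together at the ISRE, *Stat2* rose by 1.51 ± 0.24 (SE) and *Irf9* by 0.63 ± 0.14 (SE) in *Ptgs*-/- against *Ptgs*+/+ tumors, and in NK cell-depleted *Ptgs*-/- tumors their fold changes against *Ptgs*+/+ tumors were 0.50 ± 0.25 and 0.11 ± 0.15 (SE), neither called. *Irf9* thus had the smallest change of the 39 in both of these comparisons. It overlaps *Rnf31* on the same strand, and *Irf7* overlaps *Phrf1* on the other strand.

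ISG15 is a ubiquitin-like protein that is joined to other proteins, in the mouse by the ligase HERC6, and removed by USP18, which also restrains the interferon receptor. *Isg15* was among the higher genes of the group, at 69.9, 57.5, 76.2 and 100 CPM in *Ptgs*+/+ tumors, 242, 445 and 191 CPM in *Ptgs*-/- tumors, and 95.2, 142 and 177 CPM in NK cell-depleted *Ptgs*-/- tumors. Its NK cell-depleted replicate 1 fell within the *Ptgs*+/+ range, while the *Ptgs*-/- tumors stood above both groups. *Isg15*, *Usp18* and *Herc6* rose by 1.90 ± 0.29, 1.55 ± 0.29 and 1.62 ± 0.22 on the log2 scale in *Ptgs*-/- against *Ptgs*+/+ tumors (SE, adjusted p from 0.000572 to 0.0031, edgeR). Against NK cell-depleted *Ptgs*-/- tumors the 3 values were 0.96 to 1.06, with adjusted p from 0.0575 to 0.233 (edgeR).

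The OAS proteins make the second messenger that activates RNase L, and *Eif2ak2* encodes PKR, which halts translation upon binding double-stranded RNA. All 7 genes of this kind rose in *Ptgs*-/- against *Ptgs*+/+ tumors, with log2 fold changes from 1.12 (*Eif2ak2*) to 2.10 (*Oas3*). *Oas3* was at 4.98, 3.30, 8.08 and 5.34 CPM in *Ptgs*+/+ tumors, 17.1, 40.3 and 15.6 CPM in *Ptgs*-/- tumors, and 7.38, 13.1 and 9.44 CPM in NK cell-depleted *Ptgs*-/- tumors. The depleted group reached into the *Ptgs*+/+ range but not into that of *Ptgs*-/- tumors. Its fold changes were 2.10 ± 0.37 against *Ptgs*+/+ (SE, adjusted p = 0.00235, edgeR) and 1.26 ± 0.39 against NK cell-depleted *Ptgs*-/- tumors (SE, adjusted p = 0.215, edgeR). *Oasl1*, known to limit translation of *Irf7*, was at 4.91, 5.67, 9.39 and 7.85 CPM in *Ptgs*+/+, 17.2, 35.3 and 23.8 CPM in *Ptgs*-/-, and 8.03, 11.1 and 13.8 CPM in NK cell-depleted *Ptgs*-/- tumors. The *Oasl1* difference between the last 2 groups, 1.19 ± 0.30 on the log2 scale, did not pass the test (adjusted p = 0.103, edgeR). *Oas1g* was near the bottom of the range, at 2.26, 1.24, 1.93 and 2.09 CPM in *Ptgs*+/+, 4.05, 9.72 and 3.65 CPM in *Ptgs*-/-, and 3.75, 3.32 and 4.37 CPM in NK cell-depleted *Ptgs*-/- tumors, so that the 2 groups of *Ptgs*-/- tumors overlapped. *Oas1a*, *Oasl2* and *Eif2ak2* overlapped there as well. Reads of *Oas1a* and *Oas1g*, members of a family of close copies, may be shared, and *Oasl1* overlaps *Gm13822* on the other strand.

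Of the 8 other effectors beside the MX genes, 7 rose in *Ptgs*-/- against *Ptgs*+/+ tumors. *Cmpk2*, a mitochondrial nucleotide kinase whose gene neighbors *Rsad2*, was at 5.30, 3.30, 7.55 and 7.53 CPM in *Ptgs*+/+ tumors, 21.6, 31.6 and 19.2 CPM in *Ptgs*-/- tumors, and 9.63, 12.5 and 15.8 CPM in NK cell-depleted *Ptgs*-/- tumors. These 3 ranges did not overlap. *Cmpk2* rose by 1.97 ± 0.28 in *Ptgs*-/- (SE, adjusted p = 0.000682, edgeR) and by 1.06 ± 0.28 in NK cell-depleted *Ptgs*-/- tumors (SE, adjusted p = 0.0305, edgeR, called in 15 of 20 alternatives), both on the log2 scale against *Ptgs*+/+ tumors. *Rsad2* encodes viperin, which makes a chain-terminating nucleotide. It was at 41.6, 37.5, 67.9 and 69.1 CPM, then 183, 239 and 104 CPM, and then 63, 88 and 123 CPM in the same order of groups, and its depleted range overlapped both others.

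*Sp100*, a scaffold of nuclear bodies, was at 39.4, 39.6, 47.3 and 48 CPM in *Ptgs*+/+ tumors, 91.5, 163 and 116 CPM in *Ptgs*-/- tumors, and 70, 83 and 78.6 CPM in NK cell-depleted *Ptgs*-/- tumors. All 6 COX-deficient tumors, with or without NK cells, stood above all 4 *Ptgs*+/+ tumors. Its log2 fold changes were 1.44 ± 0.17 for *Ptgs*-/- (SE, adjusted p = 0.000264, edgeR) and 0.79 ± 0.17 for NK cell-depleted *Ptgs*-/- tumors (SE, adjusted p = 0.0109, edgeR), both against *Ptgs*+/+ tumors, and the latter kept an adjusted p between 0.000444 and 0.0498 over its 20 alternatives. *Trim30a*, *Samd9l*, *Xaf1* and *Bst2*, the last of which encodes tetherin that holds budding virus at the cell surface, rose by 1.47, 1.27, 1.69 and 1.12 on the log2 scale in *Ptgs*-/- against *Ptgs*+/+ tumors. *Isg20*, an exonuclease gene, was the exception. It was at 9.58, 4.95, 12 and 15.8 CPM in *Ptgs*+/+, 19, 20.9 and 11.5 CPM in *Ptgs*-/-, and 11.2, 14.6 and 13.4 CPM in NK cell-depleted *Ptgs*-/- tumors, with all ranges overlapping and a log2 fold change of 0.64 ± 0.31 between the first 2 groups (SE, adjusted p = 0.168, edgeR).

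*Parp9* and *Dtx3l* form an ADP-ribosylating ubiquitin ligase and *Parp14* is a related enzyme. They rose by 1.16 ± 0.16, 0.98 ± 0.15 and 1.45 ± 0.22 on the log2 scale in *Ptgs*-/- against *Ptgs*+/+ tumors (SE). *Parp9* was also called in NK cell-depleted *Ptgs*-/- against *Ptgs*+/+ tumors, by 0.55 ± 0.16 (SE, adjusted p = 0.0481, edgeR), which held in 9 of 20 alternatives. *Parp9* (chr16:35938470-35972605, plus strand) and *Dtx3l* (chr16:35926511-35939151, minus strand) overlap only at the ends where they start. Without strand in the counting, only reads from that shared stretch could be confused. How many fell there was not tested. Of the remaining 5 genes, *Rtp4*, *Ifi44*, *Ifi35* and *Tor3a* rose in *Ptgs*-/- against *Ptgs*+/+ tumors, by 0.79 (*Ifi35*) to 1.68 (*Ifi44*) on the log2 scale. *Ifi44* was at 12, 9.28, 21.1 and 14.2 CPM in *Ptgs*+/+, 32.3, 73.5 and 36 CPM in *Ptgs*-/-, and 14.1, 25.1 and 23.8 CPM in NK cell-depleted *Ptgs*-/- tumors, and stood 1.14 ± 0.36 above the depleted group without passing the test (SE, adjusted p = 0.215, edgeR). *Ifi27l2a* was among the highest of the 39 in level, at 136, 129, 283 and 229 CPM, then 201, 532 and 320 CPM, and then 287, 291 and 288 CPM. The *Ptgs*-/- range overlapped both others, and the depleted tumors lay just above the *Ptgs*+/+ tumors. Its fold change between *Ptgs*-/- and *Ptgs*+/+ tumors was 0.80 ± 0.32 (SE, adjusted p = 0.0903, edgeR).

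The tumors of a group differed from each other across the whole list at once. *Ptgs*-/- replicate 2 was the highest of its group in 39 of 39 genes, NK cell-depleted replicate 3 in 30 and *Ptgs*+/+ replicate 3 in 27, while NK cell-depleted replicate 1 was the lowest of its group in 36. Without *Ptgs*-/- replicate 2 the median log2 fold change was 1.2 against *Ptgs*+/+ tumors and 0.60 against NK cell-depleted *Ptgs*-/- tumors, with 37 and 0 genes called. The summed level of the 39 genes was 2310, 4080 and 2430 CPM in the *Ptgs*-/- tumors, and in the same tumors 8 macrophage markers summed to 2780, 4310 and 3330 CPM, 6 inflammatory monocyte markers to 1190, 2000 and 1420 CPM, 6 fibroblast markers to 13800, 16600 and 13400 CPM and 8 NK cell markers to 79.5, 96.7 and 176 CPM. Replicate 2 was the highest of the 3 in the first 3 of these marker sums and replicate 3 in the last. With 3 tumors no relation was tested.

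Markers of several cell types moved with the groups, and their part in the result was not tested. Of all 14550 genes tested, 1763 (12.1%) rose and 1597 fell in *Ptgs*-/- against *Ptgs*+/+ tumors. In NK cell-depleted *Ptgs*-/- against *Ptgs*+/+ tumors 964 (6.63%) rose and 854 fell. The macrophage markers summed to 1720 to 2040 CPM in *Ptgs*+/+ tumors, 2780 to 4310 CPM in *Ptgs*-/- tumors and 2560 to 2890 CPM in NK cell-depleted *Ptgs*-/- tumors, and 6 of 8 rose in *Ptgs*-/- and 3 of 8 in NK cell-depleted *Ptgs*-/- against *Ptgs*+/+ tumors, with none at 0 in any library. Divided by that sum, the 39 antiviral genes gave 0.505, 0.504, 0.688 and 0.609 in *Ptgs*+/+ tumors, 0.832, 0.949 and 0.729 in *Ptgs*-/- tumors and 0.560, 0.598 and 0.707 in NK cell-depleted *Ptgs*-/- tumors. On this scale the *Ptgs*-/- tumors remained above all others, while the NK cell-depleted and the *Ptgs*+/+ tumors overlapped. Divided instead by 6 inflammatory monocyte markers, which summed to 627 to 822, 1190 to 2000 and 1000 to 1240 CPM, the 39 genes gave 1.17, 1.37, 2.24 and 1.65 in *Ptgs*+/+ tumors, 1.95, 2.05 and 1.71 in *Ptgs*-/- tumors and 1.43, 1.56 and 1.58 in NK cell-depleted *Ptgs*-/- tumors. On that scale every *Ptgs*-/- tumor stood above every NK cell-depleted one, and *Ptgs*+/+ replicate 3 alone stood above the *Ptgs*-/- tumors, the other 3 being below them. Of the 6 monocyte markers (*Ly6c2*, *Ccr2*, *Chil3*, *Plac8*, *F13a1* and *Vcan*), 4 rose and 1, *Vcan*, fell in *Ptgs*-/- against *Ptgs*+/+ tumors. *Plac8* is also listed among the other antiviral interferon-stimulated genes below, so this divisor is not free of such genes. Its part in the ratio was not tested. T cell markers summed to 6.62 to 8.89, 21.5 to 60.9 and 13.2 to 18.1 CPM, neutrophil markers to 362 to 602, 69.7 to 98.5 and 131 to 186 CPM, fibroblast markers to 7520 to 10400, 13400 to 16600 and 10700 to 13600 CPM, and skeletal muscle markers to 16.7 to 150, 95.5 to 342 and 2090 to 4950 CPM, always in the order *Ptgs*+/+, *Ptgs*-/- and NK cell-depleted *Ptgs*-/-. In *Ptgs*-/- against *Ptgs*+/+ tumors 6 of 7 T cell markers tested rose and 5 of 7 neutrophil markers fell, and in NK cell-depleted *Ptgs*-/- against *Ptgs*+/+ tumors 7 of 7 skeletal muscle markers rose. NK cell markers fell in 5 of 7 and rose in none in that last comparison, with *Ncr1* at 0 in the depleted tumors.

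**Figure D4:**
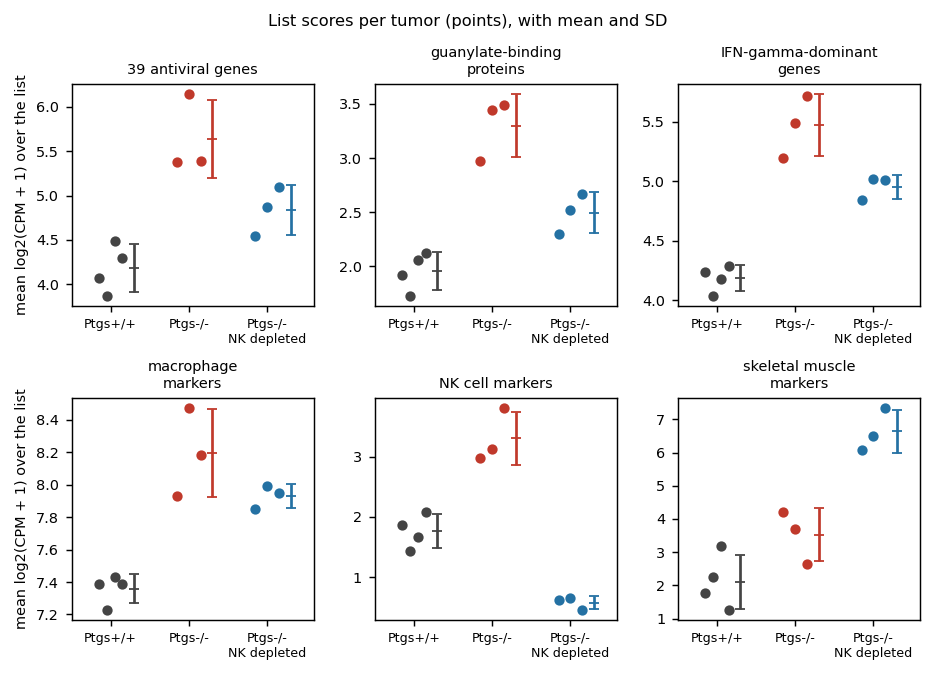
Mean log2(CPM + 1) over each of 6 gene lists in each tumor (points), with the mean and SD of each group beside them, each panel on its own vertical axis that does not start at 0. The 39 antiviral genes stand at 3.87 to 4.49 in *Ptgs*+/+, 5.38 to 6.14 in *Ptgs*-/- and 4.54 to 5.10 in NK cell-depleted *Ptgs*-/- tumors; macrophage markers follow a like order, NK cell markers are lowest and skeletal muscle markers highest in the NK cell-depleted tumors.

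The interferons themselves were barely seen. Of 18 type I interferon genes in the table, 12, among them *Ifnb1*, had 0 counts in all 10 libraries, which allows up to 0.234 to 0.368 CPM each by library and for counting error only. The other 6 (*Ifne*, *Ifnk*, *Ifnz*, *Ifna13*, *Ifna16* and *Ifnab*) held 13 counts in all, with at most 2 in a library, and the 2 type III genes held none. *Ifng*, the type II gene, held 0, 0, 0 and 2 counts in *Ptgs*+/+ tumors, 3, 4 and 7 counts in *Ptgs*-/- tumors, and 1, 0 and 0 counts in NK cell-depleted *Ptgs*-/- tumors. None of these genes passed the filter, so no difference in a ligand could be tested at this depth.

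Of all genes tested, 12.1% rose in *Ptgs*-/- against *Ptgs*+/+ tumors, and 0.515% were higher with NK cells between the 2 groups of *Ptgs*-/- tumors. Of 19 receptor and signaling genes tested, 10 rose and 1 fell in *Ptgs*-/- against *Ptgs*+/+ tumors, and their median on the log2 scale was 0.37. The receptor subunit *Ifnar1* rose by 0.68 ± 0.15 (SE, adjusted p = 0.0091, edgeR), while *Ifnar2* was at 0.18 ± 0.13 (SE, adjusted p = 0.357, edgeR). *Socs3*, a feedback inhibitor of cytokine receptors, fell by 1.05 (adjusted p = 0.027, edgeR). In *Ptgs*-/- against NK cell-depleted *Ptgs*-/- tumors 1 of the 19 was called, *Irf1*, an interferon-induced transcription factor, by 0.50 ± 0.10 (SE, adjusted p = 0.0341, edgeR). Of 17 sensing genes tested beyond the 4 sensors above, 9 rose in *Ptgs*-/- against *Ptgs*+/+ tumors, among them *Tlr7* (1.54) and *Unc93b1* (1.36) of the endosomal RNA pathway. The central adaptors and kinase *Mavs*, *Tmem173* (STING) and *Tbk1* were at -0.10, 0.25 and 0.09 there, not called. Of the 17, none was called between the 2 groups of *Ptgs*-/- tumors. In NK cell-depleted *Ptgs*-/- against *Ptgs*+/+ tumors, 6.63% of all genes rose. There 5 of the 19 receptor and signaling genes rose and 2 fell. Of the 17 sensing genes 4 rose, among them *Tlr7* (0.98) and *Unc93b1* (0.87), and 0 fell.

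Beside the same shares over all genes (12.1% and 0.515%), a wider set of 67 other antiviral interferon-stimulated genes was read. In it, 54 rose and 1 fell in *Ptgs*-/- against *Ptgs*+/+ tumors, at a median of 1.27 on the log2 scale. In NK cell-depleted *Ptgs*-/- against *Ptgs*+/+ tumors 16 rose and 1 fell, at a median of 0.57, where 6.63% of all genes rose. Between *Ptgs*-/- and NK cell-depleted *Ptgs*-/- tumors 6 were higher with NK cells, at a median of 0.65 over the set: *Ifit1bl1* by 1.79 ± 0.30 (SE, adjusted p = 0.0105, edgeR), *Slfn4* by 1.71 ± 0.36 (SE, adjusted p = 0.0412, edgeR), *Phf11c* by 1.51, *Ms4a4c* by 1.05, *Rnf213* by 0.89 and *Epsti1* by 0.82. *Ifit1bl1*, a relative of *Ifit1*, was at 1.71, 1.86, 1.67 and 1.57 CPM in *Ptgs*+/+, 7.24, 11.4 and 5.65 CPM in *Ptgs*-/-, and 2.14, 1.75 and 2.98 CPM in NK cell-depleted *Ptgs*-/- tumors. Its depleted tumors overlapped the *Ptgs*+/+ tumors and none came near the *Ptgs*-/- tumors. The 1 gene that fell was *Ifitm1*, a membrane protein that hinders viral entry, at 49.1, 52.8, 38.5 and 41.8 CPM in *Ptgs*+/+, 11.3, 12.9 and 12.5 CPM in *Ptgs*-/-, and 11.1, 20.6 and 12.5 CPM in NK cell-depleted *Ptgs*-/- tumors. It was lower by 1.95 ± 0.21 (SE, adjusted p = 0.000165, edgeR) on the log2 scale in *Ptgs*-/- than in *Ptgs*+/+ tumors, against the direction of the others.

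Other lists of interferon-responsive genes, only 1 of them chosen as interferon-γ-dominant, are given beside the antiviral genes as a description, and no test between lists was made. The 39 antiviral genes had median log2 fold changes of 1.53, 0.86 and 0.60 in the comparisons of *Ptgs*-/- with *Ptgs*+/+, *Ptgs*-/- with NK cell-depleted *Ptgs*-/-, and NK cell-depleted *Ptgs*-/- with *Ptgs*+/+ tumors. Of all genes tested, 12.1%, 0.515% and 6.63% were called higher in the same comparisons. The 8 guanylate-binding proteins tested, GTPases that attack the membranes of intracellular pathogens, had 1.80, 0.95 and 0.96, with 8, 2 and 4 called, and the 8 immunity-related GTPases had 1.60, 0.78 and 0.78, with 8, 0 and 3 called. The 15 interferon-γ-dominant genes had 1.5, 0.50 and 1.08, with 13, 2 and 8 called, and the 15 genes of MHC class I presentation had 1.07, 0.46 and 0.65, with 12, 0 and 6 called. In the interferon-γ-dominant list, *Cxcl9*, a chemokine for T cells, was called in all 3 comparisons, by 3.44, 1.63 and 1.82, whereas the MHC class II gene *H2-Aa* was called in the first and last, by 1.67 and 1.28, and stood at 0.39 (adjusted p = 0.427, edgeR) between the 2 groups of *Ptgs*-/- tumors.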

How the data were processed

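Bulk tumor RNA was made into QuantSeq 3′ libraries, aligned to GRCm38 with STAR and counted on genes by the authors, who deposited raw counts per gene for each tumor, neither normalized nor pooled. Whether counting used strand or shared reads is not given in the sources used here. Gene names and coordinates came from GENCODE M21, which left 563 identifiers unnamed. Counts were analyzed in R 4.3.3 with edgeR 4.0.16: filterByExpr, TMM, and the quasi-likelihood test over 3 groups in 1 model of 10 libraries, with Benjamini-Hochberg adjustment over 14550 genes. CPM used total counts, and scores are means of log2(CPM + 1). Alternatives were DESeq2 1.42.0, other scalings, filters and tests, title code, replicate block and each library left out. Replicate libraries differed by 7.75 to 32.3 in chi-square per degree of freedom, so none was a repeat. The fit was tested on simulated data. The genes, lists and tests were chosen with earlier results of these data known. All 39 genes could be named. Values per tumor were given for the 5 largest changes in each comparison, for calls between *Ptgs*-/- groups, and for others added after their values were seen. Some items of the lists are not reported here.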

Additional observations from a re-analysis of the deposited data

Results flagged for a closer look

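One value stood apart from its group. *Ifit2* was at 9.39 CPM in *Ptgs*+/+ replicate 3, while the other 3 *Ptgs*+/+ tumors were at 10.7, 10.7 and 10.6 CPM, a gap of 0.883 of the range of the group, which is past the 95% critical value of Dixon’s test for 4 samples. It was 1 of 40 such groups examined, and chance alone marks about 1 in 20.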

How the results depend on the processing

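The count of 37 genes called between *Ptgs*-/- and *Ptgs*+/+ tumors was 36 to 38 under all alternatives but the study's fold threshold (23), and 37 to 38 with 1 library left out. The count of 1 between *Ptgs*-/- and NK cell-depleted *Ptgs*-/- tumors was 0 under the study's threshold, 0 with at least 10 counts required in every library, 0 when only the 2 groups were fitted, 13 by the likelihood ratio test, 16 by DESeq2, 21 without a filter, and 0 to 9 with 1 library left out (0 without *Ptgs*+/+ replicate 4, *Ptgs*-/- replicate 2, or NK cell-depleted replicate 1 or 2, 3 without *Ptgs*+/+ replicate 3, and 9 without *Ptgs*-/- replicate 1). The count of 7 between NK cell-depleted *Ptgs*-/- and *Ptgs*+/+ tumors was 0 under the study's threshold, 2 with the title code as a term, 13 by DESeq2, by the likelihood ratio test and with only the 2 groups fitted, 20 without a filter, and 1 to 15 with 1 library left out (3 without *Ptgs*+/+ replicate 4, 14 without *Ptgs*+/+ replicate 3). Over all genes, in either direction, the count of this last comparison was 1818 in the main fit and 1531 with the title code as a term. It was 2277 by DESeq2, 2210 by the likelihood ratio test, 1832 with only the 2 groups fitted and 1984 without a filter. Between the 2 groups of *Ptgs*-/- tumors it was 209 in the main fit, 42 with at least 10 counts in every library, 170 with only the 2 groups fitted and 411 without *Ptgs*-/- replicate 1. The causes were not tested. The medians of the 3 comparisons ran from 1.2 to 1.68, 0.60 to 1.03 and 0.51 to 0.80 with 1 library left out, and the score differences from 1.2 to 1.58, 0.55 to 0.93 and 0.52 to 0.80. No median or score difference turned direction.

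Deviations of same-numbered libraries correlated from -0.24 to 0.36 over all pairs of groups, and at 0.05, 0.03 and 0.01 between the 2 groups of *Ptgs*-/- tumors. Numbers were matched without regard to the title code, and the pairs at -0.24 and 0.01 join libraries of different codes. Pairs within the first code ran from -0.19 to 0.36. These values cannot show whether tumors were paired, and the main fit used no pairing. The replicate block used the number alone as well. With the replicate block, 37, 2 and 7 genes were called in the 3 comparisons, and in the middle one *Ifit2* was not among the 2. Depth limits the low genes: 3 counts equal 0.234 to 0.368 CPM, and the lowest library held 9 counts of *Mx2*, 12 of *Oas1g*, 19 of *Xaf1*, 30 of *Mx1*, 32 of *Cmpk2* and of *Oas3*, 33 of *Oas1a* and 36 of *Ifit3b*.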

Other observations

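Among 28 antiviral genes with a promoter window, the 14 with an ISRE core and the 14 without had median log2 fold changes of 1.56 and 1.52 in *Ptgs*-/- against *Ptgs*+/+ tumors, 0.84 and 0.88 in *Ptgs*-/- against NK cell-depleted *Ptgs*-/- tumors, and 0.78 and 0.56 in NK cell-depleted *Ptgs*-/- against *Ptgs*+/+ tumors. Their ranges overlapped in each comparison, and no test was made.

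Of 8 markers of plasmacytoid dendritic cells, a cell type known for making type I interferon, 4 rose and none fell at the adjusted threshold in both *Ptgs*-/- and NK cell-depleted *Ptgs*-/- against *Ptgs*+/+ tumors (edgeR), namely *Siglech*, *Spib*, *Klk1* and *Cox6a2*. The other 4 were not called, with *Ly6d* at -1.04 and -0.17 and *Tcf4* at 0.00 and -0.01 on the log2 scale, and *Ccr9* and *Pacsin1* above 0. Of all genes tested, 12.1% and 6.63% rose in these comparisons. The summed level of the 8, most of it *Tcf4*, overlapped between all groups, at 571 to 661, 539 to 677 and 605 to 708 CPM. *Siglech* was at 2.26, 1.44, 1.32 and 1.99 CPM in *Ptgs*+/+, 3.31, 4.55 and 5.47 CPM in *Ptgs*-/-, and 3.10, 3.23 and 4.37 CPM in NK cell-depleted *Ptgs*-/- tumors, and rose by 1.28 ± 0.27 and 0.98 ± 0.27 against *Ptgs*+/+ tumors (log2 fold change with SE, adjusted p = 0.00556 and 0.0345, edgeR). Between the 2 groups of *Ptgs*-/- tumors it was at 0.30 ± 0.27 (SE, adjusted p = 0.742, edgeR). *Cox6a2* was at 29 to 63.1 CPM in the NK cell-depleted tumors against at most 11.3 CPM elsewhere, and it is also a skeletal muscle gene.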
